A study of Bos taurus with 9 samples.

Results

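RNA polymerase II (RNA pol II) was profiled by chromatin immunoprecipitation and sequencing (ChIP-seq) in rumen epithelial tissue of Holstein calves, once before and once after weaning. The 2 libraries were chosen by their labels, and their peak lists held 2794 of the 130580 peaks in the 8 lists of the series, 2056 in the library before weaning and 738 in the one after. The other 6 lists were H3K9ac, H3K27ac and H3K9me3 at the same time points, and the input library, chromatin sequenced without immunoprecipitation, served the authors as background for all of them. The calves are labelled by breed only, and their age, their feed and the number of animals behind a library were not given in the sources used here. Both RNA pol II libraries were made with a mouse monoclonal antibody and run on the same sequencing lane. With 1 library a side there was no replicate, so no difference between the time points could be tested for weaning. Every direction below rests on the labels, because the text of the study attaches the smaller of these lists to the time before weaning, the reverse of the labels.

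RNA pol II is the enzyme that transcribes protein-coding genes, and its ChIP-seq peaks usually mark promoters, active enhancers and gene bodies in use. H3K9ac and H3K27ac are acetylations of histone H3 found at active promoters, and H3K27ac also at active enhancers. H3K9me3 is a trimethylation of histone H3 found in repressed chromatin and over many repeats. The rumen is the fermentation chamber of the stomach of cattle, and its lining matures as the calf passes from milk to solid feed. The comparison asked where RNA pol II was found at both time points, and which chromatin marks lay at the sites that were kept, lost or gained.

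A peak before weaning was called kept when it shared at least 1 bp with a peak after weaning, and lost otherwise. A peak after weaning that touched no peak before weaning was called gained. Lost therefore means that no peak was called after weaning, not that RNA pol II was absent. Shares are given with 95% Wilson intervals. They reflect counting error alone, and treat peaks that lie close together as if they were independent. Positions are those of the lists, on the cattle assembly UMD3.1. No gene annotation of that assembly was used here, so the peaks have no gene names and the labelled tissue could not be checked against marker genes.

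The loss of RNA pol II peaks fell mostly on peaks with histone acetylation and no H3K9me3. Before weaning 1538 of the 2056 peaks touched H3K9ac or H3K27ac and no H3K9me3 peak of the same time point, and these are called acetylation-only peaks below. After weaning 24 of the 738 peaks were of this kind, a ratio of 0.0156, which was 0.133 when a reciprocal overlap of 50% was asked and 0.0474 with equal numbers of the widest peaks. Peaks that touched H3K9me3, with or without acetylation, went the other way, from 446 to 637, a ratio of 1.43, which was 2.96 with equal numbers of the widest peaks. The whole list shrank to a ratio of 0.359 in number and of 0.415 in covered length, from 658.8 to 273.7 kb. By an overlap of 1 bp the list before weaning thus held mostly acetylated sites, and the list after weaning mostly sites with H3K9me3. The part on acetylated sites did not hold under a reciprocal overlap of 50%, where 11.1% of lost peaks touched H3K27ac and 28.3% H3K9ac before weaning. Under that rule 42.5% of gained peaks touched H3K9me3 after weaning, a share of gained peaks and not of the whole list. The ratio of the number of peaks touching H3K9me3 was then 1.48.

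**Figure D1:**
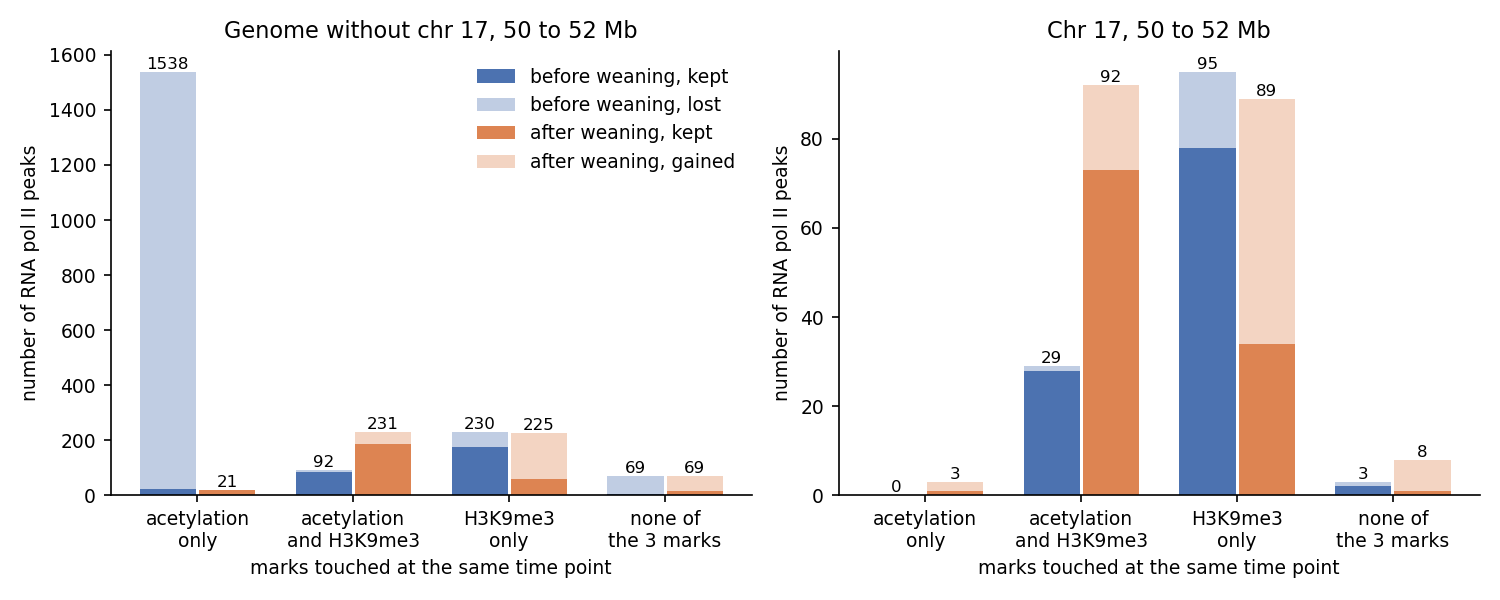
Number of RNA pol II peaks (y axis) by the marks they touched at the same time point (x axis), for the genome without chromosome 17 from 50 to 52 Mb (left) and for that stretch (right), on different y scales. Dark parts of the bars are kept peaks and pale parts lost or gained peaks. The left panel falls from 1538 to 21 acetylation-only peaks, while peaks with acetylation and H3K9me3 go from 92 to 231.

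A stretch of 2 Mb on chromosome 17, from 50 to 52 Mb, held 6.18% of the peaks before weaning and 26.0% of those after, and is given apart. Its peaks went from 127 to 192, a ratio of 1.51, while the rest of the genome went from 1929 to 546, a ratio of 0.283. In covered length the stretch went from 43.8 to 72.6 kb and the rest from 615.0 to 201.1 kb. The stretch had no acetylation-only peak before weaning and 3 after. Its peaks with both acetylation and H3K9me3 went from 29 to 92, and those with H3K9me3 alone went from 95 to 89. With marks of either time point, chosen after seeing the data, these counts were 77 to 95 and 49 to 96. Outside it the acetylation-only peaks went from 1538 to 21, the peaks with both from 92 to 231, those with H3K9me3 alone from 230 to 225, and those with none of the 3 marks stood at 69 in each list. With marks of either time point the acetylation-only peaks went from 1537 to 21, those with both from 222 to 239, those with H3K9me3 alone from 113 to 254, and those with none from 57 to 32. The fall of the acetylation-only class was thus the same under both definitions, while the course of the other classes depended on which mark lists defined them. The fall of acetylation-only peaks was as large without this stretch.

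Over all peaks, 396 of 2056 before weaning were kept (19.3%) and 1660 were lost (80.7%). Outside the stretch 288 of 1929 were kept (14.9%, 13.4 to 16.6), and inside it 108 of 127 (85.0%). Of the peaks after weaning, 388 of 738 touched a peak before weaning (52.6%) and 350 were gained (47.4%). With equal numbers of the widest peaks from both lists 29.7% touched one, so that most peaks would be called gained. Outside the stretch 279 of 546 touched one (51.1%) and 267 were gained (48.9%), and inside it 109 of 192 did (56.8%) and 83 were gained (43.2%).

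Read against the share for the list before weaning, its acetylation-only peaks were kept far less often and the peaks with H3K9me3 far more often than that list as a whole. Of the 1538 acetylation-only peaks 22 were kept (1.43%, 0.947 to 2.16). Of the 446 peaks touching H3K9me3 before weaning 367 were kept (82.3%, 78.5 to 85.6), and outside the stretch 261 of 322 (81.1%, 76.4 to 85.0). The share was 92.6% (112 of 121) for peaks with both acetylation and H3K9me3, and 78.5% (255 of 325) for peaks with H3K9me3 alone. Of the 72 peaks with none of the 3 marks 7 were kept (9.72%).

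The list after weaning gave another order. Of its 24 acetylation-only peaks 19 touched a peak before weaning (79.2%, 59.5 to 90.8), and outside the stretch 18 of 21 did (85.7%). Of the 637 peaks touching H3K9me3 353 did (55.4%, 51.5 to 59.2), against 52.6% of the whole list. The share was 80.5% (260 of 323) for peaks with both acetylation and H3K9me3 and 29.6% (93 of 314) for peaks with H3K9me3 alone. In this list the shared peaks were thus more often the acetylated ones, with or without H3K9me3, and most peaks with H3K9me3 alone were gained. Were the time points reversed, these shares would be those of the kept peaks, and the 1516 lost acetylation-only peaks would be gained ones.

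In the list before weaning the finer combinations of marks gave the same split. RNA pol II peaks with both H3K9ac and H3K27ac, the pair usual at active promoters, numbered 880 before weaning, and 16 were kept. Those with H3K27ac alone, which is also found at enhancers, numbered 653, and 4 were kept. Peaks with H3K9ac and H3K9me3 numbered 85, and 78 were kept. Peaks with all 3 marks numbered 32, and 30 were kept. Acetylated peaks before weaning were thus mostly kept where they also touched H3K9me3 and mostly lost where they did not.

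In the list before weaning the split was seen in each of 4 groups of width. Peaks were ordered by width and cut into these groups of like number, outside the stretch on chromosome 17. The acetylation-only peaks were kept at 0.239% in the narrowest group and 3.95% in the widest, while the peaks with H3K9me3 were kept at 65.9% and 95.9%. In the list after weaning 14 of the 17 acetylation-only peaks of the narrowest group touched a peak before weaning (82.4%) against 27.4% of those with H3K9me3, and the widest group held no acetylation-only peak. The lists hold no peak height, so width was the only measure of size.

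**Figure D2:**
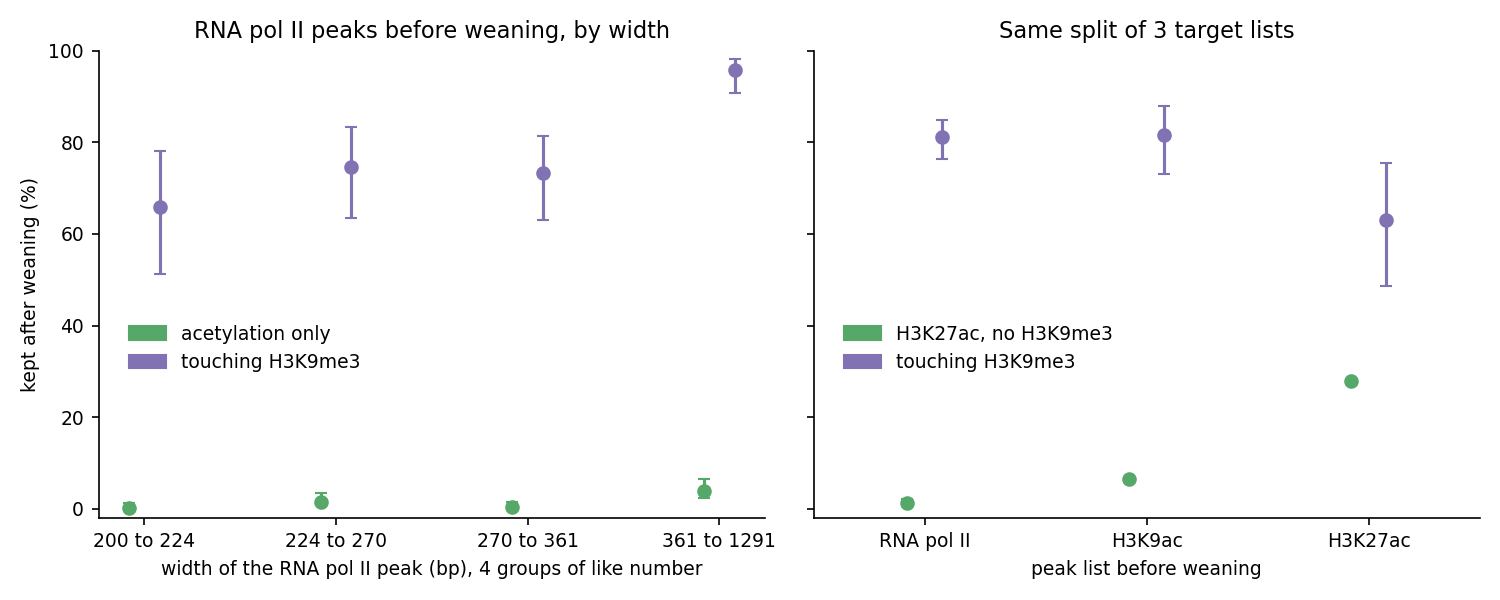
Share of peaks kept after weaning (y axis, percent, 95% Wilson intervals), without chromosome 17 from 50 to 52 Mb. Left, RNA pol II peaks before weaning by group of width, where acetylation-only peaks stay at or under 3.95% and peaks touching H3K9me3 at or above 65.9%. Right, peaks of RNA pol II, H3K9ac and H3K27ac split by H3K27ac and H3K9me3, where the share without H3K9me3 is 1.30%, 6.45% and 27.8%.

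The same split was made in the lists of the acetyl marks to see whether it was shared with other targets. As a whole these lists kept 6.60% of the H3K9ac and 27.9% of the H3K27ac peaks before weaning. Peaks that touched or were H3K27ac and did not touch H3K9me3 before weaning were kept at 1.30% for RNA pol II (20 of 1533, 0.846 to 2.01), 6.45% for H3K9ac (833 of 12911) and 27.8% for H3K27ac (20659 of 74194), outside the stretch. Peaks that touched H3K9me3 were kept at 81.1%, 81.6% (84 of 103) and 63.0% (29 of 46). The higher share at H3K9me3 was thus found for all 3 targets, and the share without it was lowest for RNA pol II. The 3 lists differ in length and were called separately, and the part of list length in these shares was not tested.

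At the lost sites H3K27ac mostly stayed while H3K9ac mostly did not. Of the 1516 acetylation-only RNA pol II peaks that were lost, 1139 touched an H3K27ac peak after weaning (75.1%, 72.9 to 77.2) and 104 an H3K9ac peak (6.86%). Among those that touched the mark before weaning, 1138 of 1513 still touched H3K27ac after it (75.2%) and 92 of 867 still touched H3K9ac (10.6%). None of the 1516 touched H3K9me3 after weaning, a count of 0 that allows a share of up to 0.253%. The H3K27ac peaks before weaning under these lost sites numbered 1482, and 81.2% of them were kept (79.2 to 83.2), against 26.7% of the 72710 H3K27ac peaks under no RNA pol II peak. These H3K27ac peaks were wide, with a median of 982 bp against 339 bp. Among the widest of 4 such groups of the H3K27ac list the shares were 88.4% of 1199 and 57.2% of 17346. Within that group the widths still differed, with medians of 1115 and 789 bp. For H3K9ac 11.8% of 882 peaks under lost sites were kept, against 5.52% of 13366.

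Over all lost peaks outside the stretch on chromosome 17 the values were close to these. Of 1641 lost peaks 92.3% touched H3K27ac before and 70.0% after weaning, 53.3% and 7.31% touched H3K9ac, and 3.72% and 2.62% touched H3K9me3. Of all 1929 peaks of the list before weaning there, 84.5% touched either acetyl mark and 16.7% H3K9me3 before weaning. Lost peaks make up most of that list, so their H3K9ac share before weaning lies near that of the list. Of the 288 kept peaks 90.6% touched H3K9me3 before and 88.5% after weaning, and acetylation was called at more of them after weaning, from 34.4% to 61.5% for H3K9ac and from 15.6% to 55.2% for H3K27ac. Of the 267 gained peaks 79.4% touched H3K9me3 before weaning and 78.7% after, near the 83.5% (456 of 546) of the whole list after weaning. Over the whole genome H3K9ac before weaning was touched by 52.8% of lost peaks, by 28.3% under a reciprocal overlap of 50% and by 76.2% with an extension of 1 kb. H3K27ac before weaning was touched by 13.6% of kept peaks, and by 6.60% under the reciprocal overlap. Acetylation was rarer at the gained peaks outside the stretch. H3K9ac was touched by 7 of these 267 before weaning and by 31 after (11.6%), and H3K27ac by 4 and 22 (8.24%). Of the 279 kept peaks of the list after weaning there, 60.9% touched H3K9ac and 57.0% H3K27ac after weaning. Of all 546 peaks of that list there, 46.2% touched either acetyl mark after weaning. Among peaks wider than the common median, over the whole genome, 32.4% of gained peaks touched H3K9ac and 24.9% H3K27ac after weaning, against 13.4% and 9.14% of all gained peaks. Inside the stretch 97.6% of the 83 gained peaks touched H3K9me3 before weaning and 89.2% after. The latter is below the 94.3% (181 of 192) of all peaks after weaning in the stretch. The list of H3K9me3 peaks was itself longer after weaning (4170 against 2410 peaks), and its libraries came from different lanes, so for H3K9me3 the time point and the lane cannot be told apart.

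**Figure D3:**
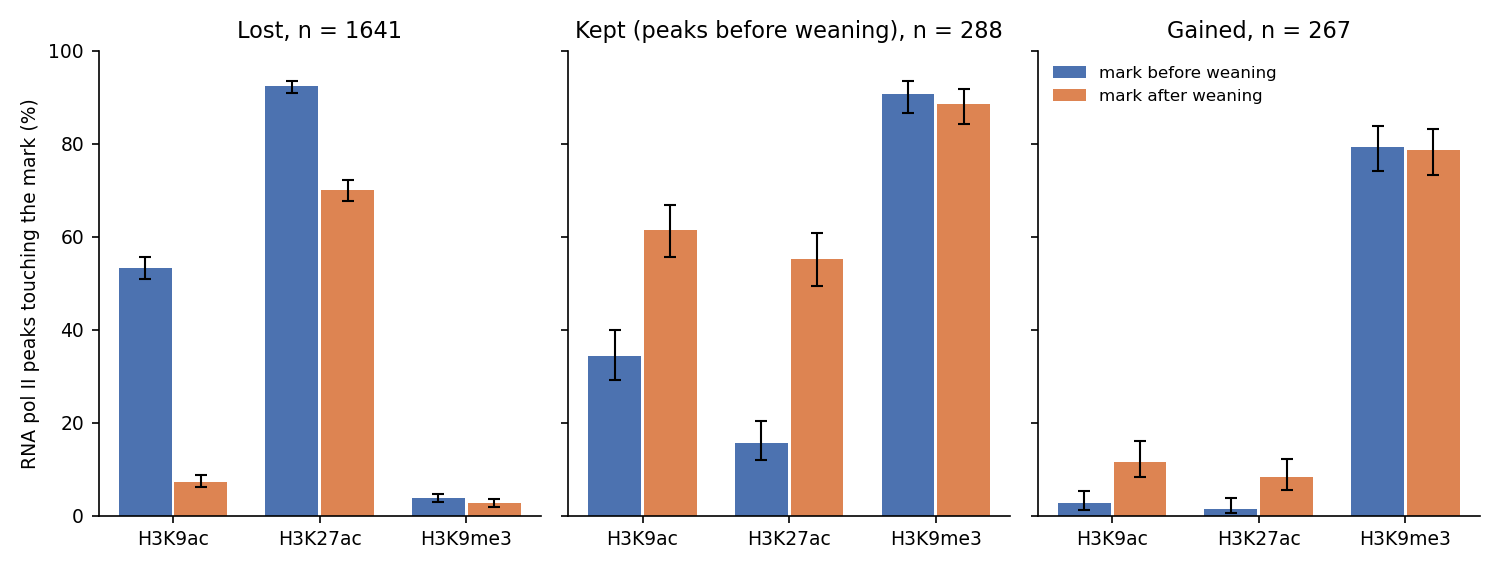
Share of lost, kept and gained RNA pol II peaks (y axis, percent, 95% Wilson intervals) that touched each mark before and after weaning, without chromosome 17 from 50 to 52 Mb. Lost peaks touched H3K27ac at 92.3% before and 70.0% after weaning, and kept and gained peaks touched H3K9me3 at 78.7% or more at both time points.

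More RNA pol II peaks on H3K9me3 touched acetylation of the same time point after weaning than before. RNA pol II peaks with all 3 marks of the same time point numbered 162 after weaning against 32 before, and 152 of the 162 touched a peak before weaning. Peaks with H3K9ac and H3K9me3 numbered 105 (71 kept), those with H3K27ac and H3K9me3 56 (37 kept), and those with H3K9me3 alone 314 (93 kept). Of the 230 peaks before weaning with H3K9me3 alone outside the stretch, 45.2% touched H3K9ac and 33.9% H3K27ac after weaning, although the H3K9ac and H3K27ac lists were shorter then. RNA pol II peaks that touched all 6 lists of other targets numbered 28 of the 396 kept, 1 of the 1660 lost and 0 of the 350 gained peaks.

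RNA pol II peaks were also placed against the nearest H3K27ac peak of the same time point. Before weaning the acetylation-only peaks had their centre at a median of 270 bp from the nearest H3K27ac centre, and 64.8% (997 of 1538) lay wholly inside an H3K27ac peak. The peaks with both acetylation and H3K9me3 then lay at a median of 8850.5 bp, but only 36 of these 121 touched H3K27ac at all, so this distance is mostly that of peaks acetylated at H3K9 alone. After weaning the acetylation-only peaks lay at a median of 179.75 bp, with 45.8% of the 24 wholly inside, and the peaks with both at 116.5 bp, with 218 of the 323 touching H3K27ac and 6.19% of the 323 wholly inside. The acetylation-only sites before weaning were thus mostly RNA pol II peaks within broader H3K27ac peaks.

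Kept peaks had a higher median width than lost and gained ones. Outside the stretch the median width was 262 bp (255 to 267) for lost peaks and 341.5 bp (316 to 373) for kept peaks of the list before weaning. In the list after weaning it was 252 bp (241 to 266) for gained and 386 bp (368 to 435) for kept peaks. There the intervals of kept peaks did not overlap those of lost or gained peaks at the same time point. Inside the stretch the medians were 249 bp (208 to 353) for the 19 lost and 310.5 bp (272 to 342) for the 108 kept peaks before weaning, whose intervals overlapped, and 269 bp (244 to 289) for gained and 374 bp (341 to 409) for kept peaks after.

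**Figure D4:**
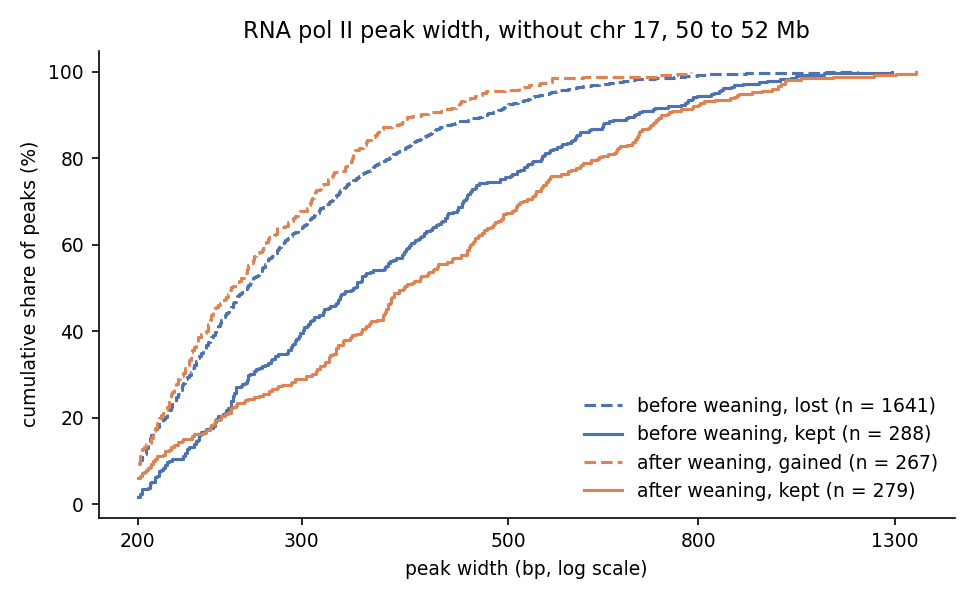
Cumulative share of RNA pol II peaks (y axis, percent) at or under a given width (x axis, bp, log scale), without chromosome 17 from 50 to 52 Mb. The curves of kept peaks lie to the right of those of lost and gained peaks, with medians of 341.5 and 386 bp against 262 and 252 bp.

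Most kept peaks matched 1 peak to 1 peak, 355 pairs in all. The peak was wider after weaning in 233 pairs, narrower in 112 and equal in 10, and the centres lay a median of 38 bp apart. Outside the stretch the 232 pairs with H3K9me3 before weaning went from a median of 343 to 406 bp, and 156 of them were wider after weaning. The 20 acetylation-only pairs went from a median of 440 to 207.5 bp, 17 of them were narrower after weaning, and 8 had the lowest width, 200 bp, after weaning. The few acetylation-only sites that kept RNA pol II were therefore mostly narrower after weaning, unlike the 73 pairs with both acetylation and H3K9me3, which went from a median of 490 to 535 bp with none at the lowest width after weaning. Of the 21 acetylation-only peaks after weaning outside the stretch 10 had this lowest width, against 151 of 1538 before.

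The widest peaks of each kind show the same pattern site by site. The widest kept peak lay at chromosome 11, positions 61798452 to 61799742 (1291 bp), and was 981 bp wide after weaning, with H3K9ac and H3K9me3 at both time points and H3K27ac after weaning only. At chromosome 23, positions 11034960 to 11036050 (1091 bp) and 9847005 to 9848010 (1006 bp), the kept peaks were 960 and 1116 bp wide after weaning, and all 3 marks were called at both time points. At chromosome 28, positions 24904166 to 24905191, a peak of 1026 bp narrowed to 200 bp. It lay on H3K9ac and H3K27ac at both time points and had no H3K9me3. At chromosome 19, positions 49336529 to 49337546, a peak of 1018 bp narrowed to 200 bp at a site that had lost H3K9ac, kept H3K27ac and had no H3K9me3. The 3 sites with H3K9me3 thus kept broad RNA pol II peaks, and both sites without it ended at the lowest width.

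The 5 widest lost peaks outside the stretch carried H3K9ac and H3K27ac before weaning, H3K27ac after weaning, and no H3K9me3 at either time. They lay at chromosome 23, positions 27332858 to 27334043 (1186 bp), chromosome 10, positions 65463400 to 65464496 (1097 bp), chromosome 5, positions 113070664 to 113071628 (965 bp), chromosome 7, positions 93250285 to 93251235 (951 bp), and chromosome 17, positions 53141377 to 53142279 (903 bp). The site on chromosome 10 alone among them also had H3K9ac after weaning. The widest gained peaks were narrower and all lay on H3K9me3 at both time points. They lay at chromosome 19, positions 3905245 to 3906029 (785 bp), chromosome 9, positions 7789640 to 7790398 (759 bp), chromosome X, positions 31860309 to 31861034 (726 bp), chromosome 10, positions 64473644 to 64474244 (601 bp), and chromosome 17, positions 25042481 to 25043037 (557 bp). The first of these had H3K27ac after weaning, and those on chromosomes 9 and X had H3K9ac after weaning.

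Inside the stretch on chromosome 17 the 3 widest kept peaks lay at positions 50641270 to 50642351 (1082 bp, 1083 bp after weaning), 51118296 to 51119224 (929 and 989 bp) and 51148282 to 51149115 (834 and 1350 bp). They touched 5 or 6 of the 6 lists of other targets, H3K9me3 at both time points included. The 3 widest lost peaks there, at 51491926 to 51492450 (525 bp), 50622097 to 50622538 (442 bp) and 51469977 to 51470343 (367 bp), touched H3K9me3 at both time points and neither acetyl mark. The 3 widest gained peaks, at 50628235 to 50628935 (701 bp), 51434390 to 51434947 (558 bp) and 50571955 to 50572436 (482 bp), also lay on H3K9me3 at both time points, and the first and the third had acetylation after weaning only.

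The distance of lost and gained peaks from the other list varied with their marks. The list after weaning was the shorter, so distances to it tend to be longer, and the part of list length was not tested. The lost acetylation-only peaks lay a median of 4751 kb from the nearest peak after weaning, where the chromosome had one, and 6 of 1516 lay within 1 kb (0.396%). The 53 lost peaks with H3K9me3 alone outside the stretch lay at a median of 4.58 kb, and 18 of them within 1 kb (34.0%). The 166 gained peaks with H3K9me3 alone lay at a median of 3.59 kb from a peak before weaning, 50 of them within 1 kb (30.1%), close to the lost peaks of the same class. The 8 lost peaks with both acetylation and H3K9me3 lay far away, at a median of 6571.53 kb with 2 of them within 1000 kb. All 267 gained peaks outside the stretch lay at a median of 5.55 kb, 73 of them within 1 kb (27.3%) and 243 within 1000 kb (91.0%). Lost acetylation-only peaks thus mostly had no RNA pol II peak near them after weaning, while lost and gained peaks with H3K9me3 alone often had one within a few kb.

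Outside the stretch the number of RNA pol II peaks was lower after weaning on each of the 30 chromosomes compared, and that of acetylation-only peaks also on each of the 30. The number of peaks touching H3K9me3 was higher on 22 and lower on 4. Chromosomes 20 and 22 had 26 peaks each before and 0 after weaning. Chromosome 7 went from 91 to 2 peaks and chromosome 1 from 74 to 2. Chromosome 14 went from 47 to 43 and chromosome 9 from 96 to 79. The chromosomes also differed in their make-up before weaning, since 96.7% of the peaks on chromosome 7 and 39.6% of those on chromosome 9 were acetylation only.

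**Figure D5:**
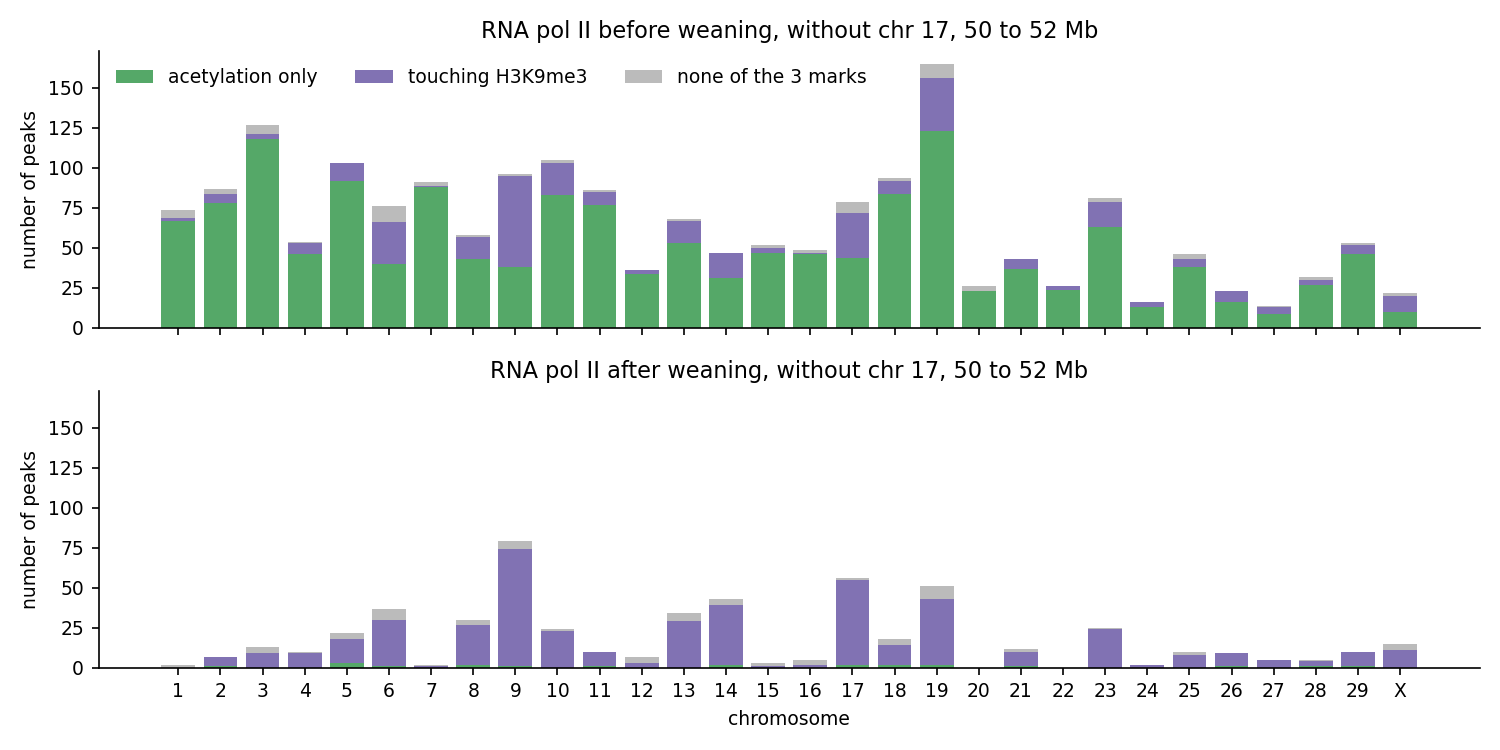
Number of RNA pol II peaks (y axis) on each chromosome (x axis) before weaning (top) and after weaning (bottom), without chromosome 17 from 50 to 52 Mb, coloured by the marks touched at the same time point. Acetylation-only peaks make up most of the bars before weaning on each chromosome except 9 and X, and chromosomes 9, 17 and 19 hold the tallest bars after weaning.

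The peaks were also counted in bins. In bins of 1 Mb outside the stretch 887 bins held a peak before weaning and 187 after, and 154 bins did at both times, 17.4% of the former and 82.4% of the latter. The 10 fullest bins held 164 peaks before (8.50%) and 207 after weaning (37.9%), and 461 of the 887 and 109 of the 187 occupied bins held a single peak. A shorter list occupies fewer bins, and the part of list length in these shares was not tested. The fullest bin before weaning was at chromosome 9, positions 7000001 to 8000000, with 26 peaks against 37 after. The fullest bin after weaning was at chromosome 17, positions 25000001 to 26000000, with 38 peaks against 16 before. Chromosome 19, positions 3000001 to 4000000, had 21 and 22 peaks, chromosome 6, positions 6000001 to 7000000, had 16 and 15, and chromosome 9, positions 27000001 to 28000000, had 15 and 16. Chromosome 14, positions 1 to 1000000, went from 2 to 22 peaks, and chromosome 13, positions 5000001 to 6000000, from 8 to 17. None of these 7 bins held an acetylation-only peak in the list for which it was among the 5 fullest. The dense places were thus mostly made of peaks with H3K9me3, and the acetylation-only peaks of the list before weaning were spread over the genome.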

How the data were processed

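RNA pol II, H3K9ac, H3K27ac and H3K9me3 were each profiled in 1 library before and 1 after weaning, with reads of 75 nt. Reads that did not pass the sequencer's filter were dropped by the authors, who aligned the rest with BWA, kept unique alignments with few mismatches, and called peaks in each library with MACS2 at default settings against 1 input. The submitters' processing notes also name Trim Galore 0.4.1 and the build UMD 3.1. Keeping unique alignments removes reads of long repeats. The deposited values are the chromosome, start and end of each peak, with no height, fold or p-value, and the depth of each library is unknown from them (the study's read totals were not used here), so peak numbers may depend on depth and on the caller's threshold. Positions were taken to count from 1 and to include both ends, which gives a lowest width of 200 bp.

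Overlaps, widths, gaps and bins were computed in Python 3.11.15 with pandas 2.3.3, numpy 2.4.6 and SciPy 1.17.1, and plotted with matplotlib 3.10.9. A shared peak needed an overlap of 1 bp. Samples were grouped by their labels, and no test of weaning was made, since each group held 1 library. Widths have 95% intervals of the median from order statistics. The overlap code recovered all planted overlaps in simulated lists. The named regions were the 5 widest kept, lost and gained peaks outside chromosome 17 from 50 to 52 Mb, the 3 widest of each inside it, and the 5 bins of 1 Mb with most peaks of each list. The libraries, the stretch on chromosome 17, the classes and the settings were chosen with earlier results of these data known. Lists of genes drawn up for an annotated build were not used. The alternatives were leaving out the stretch, a restriction to chromosomes 1 to 29 and X, joining peaks up to 1 kb apart, limits on width at the median or the lowest width, omission of regions where all 4 targets had peaks, a reciprocal overlap of 50%, an extension by 1 kb, and equal numbers of the widest peaks. Equal numbers in row order and marks of either time point, and all alternatives for the mark classes, were added after seeing the data.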

Additional observations from a re-analysis of the deposited data

Results flagged for a closer look

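The number of RNA pol II peaks was higher after weaning in the stretch of 2 Mb on chromosome 17 (ratio 1.51) and lower in the rest of the genome (ratio 0.283), opposite directions. The acetyl lists showed the same contrast, with ratios of 2.83 inside and 0.142 outside the stretch for H3K9ac (29 and 82 peaks inside) and of 7.11 and 0.409 for H3K27ac (9 and 64 peaks inside). The number of RNA pol II peaks that touched H3K9me3 was higher after weaning (ratio 1.43), while that of acetylation-only peaks was lower (ratio 0.0156). With 1 library a side neither difference was tested.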

How the results depend on the processing

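The alternatives were run on the number, covered length, median width and shared share of RNA pol II peaks, on the marks at lost, kept and gained peaks, and on the acetylation-only and H3K9me3 classes. They were not run on the gaps, bins, pairs, chromosomes, widths by state, other targets or acetyl marks left at lost sites. No direction changed where they were run, except in the numbers of peaks with H3K9me3 alone and with none of the 3 marks, given last. Of the values recomputed 74 stayed close to those reported and 59 moved further. A ratio was counted as moved when it changed by more than a factor of 1.5. A share or width was so counted when it left the interval of the reported value. The restriction to chromosomes 1 to 29 and X removed no peak, so its values are among the 74 without being a test. The share kept of acetylation-only peaks could also not move without the stretch on chromosome 17, which held none of them before weaning. The ratio of RNA pol II peak number ranged from 0.279 to 0.438 and that of covered length from 0.281 to 0.493. Leaving out the stretch on chromosome 17 moved the share kept of the peaks before weaning to 14.9%. Merging peaks within 1 kb gave 17.5%, a share kept of the peaks after weaning of 57.1%, and median widths of 284 bp before and 352.5 bp after weaning. Peaks above the common median width, 277 bp, gave medians of 373 and 407 bp, 22.2% kept before weaning, 89.5% of lost peaks touching H3K27ac before weaning, 92.5% of gained peaks touching H3K9me3 after weaning, 0.148% of acetylation-only peaks kept, and a ratio of 0.00591 for their number. Peaks wider than 200 bp gave a median of 282 bp before weaning and a ratio of 0.0101 for acetylation-only peaks. Leaving out the 178 regions with peaks of all 4 targets gave medians of 264 and 270 bp, shares kept of 11.0% before and 39.1% after weaning, and 72.3% of peaks with H3K9me3 kept. A reciprocal overlap of 50%, asked also of the marks, gave 14.7% and 41.1% kept, 11.1% of lost peaks touching H3K27ac, 42.5% of gained peaks touching H3K9me3, 2.98% of acetylation-only and 74.4% of H3K9me3 peaks kept, and a ratio of 0.133 for acetylation-only peaks. Most RNA pol II peaks in H3K27ac are much narrower than it, so this rule drops that contact by construction. Extending peaks by 1 kb gave 21.1% and 66.9% kept, 94.3% of lost peaks touching H3K27ac and 87.9% of H3K9me3 peaks kept. Equal numbers of the widest peaks, 738 a list, gave 29.1% and 29.7% kept, 2.96% for acetylation-only and 92.1% for H3K9me3 peaks, and ratios of 0.0474 and 2.96. Equal numbers in row order, chosen after seeing the data, gave 25.3% and 25.5%, 2.44% and 89.6%, and ratios of 0.0451 and 3.30. Marks of either time point left the acetylation-only and H3K9me3 results close to those reported, but the ratio of peaks with both acetylation and H3K9me3 was 1.12 in place of 2.67, and that of peaks with H3K9me3 alone 2.16 in place of 0.966, and that of peaks with none 0.561 in place of 1.07. The cause of the other moves was not tested.

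No paired analysis was possible because each group held 1 library. The lists hold no depth, so a site without a called peak cannot be read as a site without RNA pol II.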

Other observations

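The rows of the lists are not in order of position, and the share of shared peaks varied with the row. In the list before weaning, outside the stretch on chromosome 17, 4 successive groups of rows of like number were kept at 25.7%, 7.88%, 9.75% and 16.4%. In the list after weaning these groups touched a peak before weaning at 78.1%, 49.3%, 40.4% and 36.5%. What the row order stands for is not given in the sources used here.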
